A study of Homo sapiens with 4 samples.

Results

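Small nucleolar RNA (snoRNA) host genes were examined in H1792, an established cell line from a human lung cancer, labelled WT for genotype in both groups. Cells had been kept for 96 h with the solvent DMSO, the control, or with ACBI1, at a dose the labels write as 1 mM, a unit that could not be checked here. ACBI1 is a PROTAC that brings the VHL ubiquitin ligase to the catalytic subunits of SWI/SNF complexes, SMARCA4 and SMARCA2, and to PBRM1, so that these proteins are degraded. Each group held 2 RNA-seq libraries, 4 in all, and nothing in the labels says whether they came from separate cultures, so p-values measure only the spread between these libraries. The host genes were the gene symbols made of SNHG and a number, together with GAS5, ZFAS1 and DANCR, that had 10 or more counts in at least 2 libraries. This gave 27 of 31 matching symbols, out of 61228 gene rows and 19159 genes tested.

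A snoRNA host gene is transcribed by RNA polymerase II as a longer RNA, and its snoRNAs are cut out of the introns after splicing. Box C/D snoRNAs guide 2′-O-methylation and box H/ACA snoRNAs guide pseudouridylation, mainly of ribosomal RNA, while small Cajal body RNAs (scaRNAs) guide the same changes on spliceosomal RNAs. The spliced exons that remain code for little or no protein in most of these genes. Several, with GAS5 as the classic case, begin with a run of pyrimidines as ribosomal protein messages do (a 5′ terminal oligopyrimidine, or TOP, start) and are broken down by nonsense-mediated decay when they are translated.

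Inside the 27 genes, GENCODE release 29 and RefSeq together placed 145 snoRNA and scaRNA names, 83 of them in SNHG14. The other 62 were 37 box C/D snoRNAs, 22 box H/ACA snoRNAs and 3 scaRNAs. By what they carry, 11 genes held box C/D snoRNAs alone, 10 held box H/ACA snoRNAs alone, 3 held both kinds (GAS5, SNHG12 and SNHG25) and 3 held a scaRNA (SNHG20, SNHG10 and SNHG21). The following RNAs are printed as examples of a scaRNA and of box C/D snoRNAs that the genes described below carry, and no box H/ACA snoRNA is printed. SCARNA16 sits in SNHG20, the host gene that changed most, within an annotated host exon. SNORD104 and SNORD12C are box C/D snoRNAs within host introns, and their own rows had counts. Sequences are those of GENCODE release 29, in DNA letters. Capitals mark the ACA box near the 3′ end of the scaRNA, and the C box (TGATGA) and the last D box (CTGA) of the C/D snoRNAs.
SCARNA16 (host SNHG20, chr17:77089307-77089493, + strand, GRCh38): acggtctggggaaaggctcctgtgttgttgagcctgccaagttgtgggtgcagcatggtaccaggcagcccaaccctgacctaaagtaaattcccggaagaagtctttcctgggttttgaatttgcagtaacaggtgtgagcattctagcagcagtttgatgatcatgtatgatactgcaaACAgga
SNORD104 (host SNHG25, chr17:64146083-64146152, + strand, GRCh38): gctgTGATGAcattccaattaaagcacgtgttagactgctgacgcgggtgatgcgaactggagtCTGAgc
SNORD12C (host ZFAS1, chr20:49278940-49279028, + strand, GRCh38): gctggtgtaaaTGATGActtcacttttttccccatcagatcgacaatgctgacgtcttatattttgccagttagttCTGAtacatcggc

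Counts assigned to genes summed to between 64281850 and 86010100 per library. Of 9 lung epithelial markers, 6 were tested and 4, all keratins, were called lower with ACBI1 (KRT7 at 678 and 680.4 CPM with DMSO and 179 and 60.3 CPM with ACBI1, in counts per 1000000 counts, or CPM, on TMM-scaled library sizes). EPCAM, not called, was at 5.38 and 2.78 CPM with DMSO and 15.6 and 4.84 CPM with ACBI1 (log2 change 1.32, adjusted p 0.179 from edgeR). The lung lineage factor NKX2-1 had 0 counts in all 4 libraries, which allows at most 0.0335 to 0.0458 CPM. The 5 leukocyte markers summed to 0.196 to 0.592 CPM per library, with CD3E at 0. The 5 fibroblast markers (3 called lower) were at summed levels of 991 and 1941 CPM with DMSO and 87.5 and 270.4 CPM with ACBI1. The 4 endothelial markers (3 tested, 2 called lower) summed to 12.7 and 49.0 against 0.123 and 0.107 CPM. Nearly all of the DMSO sum was PECAM1, at 12.2 and 48.1 CPM. Both sums moved with the treatment, and the part of these genes in the results below was not tested. ACBI1 acts on proteins, so transcript counts do not check the treatment itself.

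The 27 host genes together took up 0.153% and 0.124% of the gene counts with DMSO (replicate 1, then 2, as in all pairs of values below) and 0.198% and 0.148% with ACBI1. Their summed level was 1599 and 1257 CPM with DMSO and 1903 and 1456 CPM with ACBI1. The ranges of the groups overlapped, because DMSO replicate 1 lay above ACBI1 replicate 2. SNHG29, SNHG16 and GAS5 supplied 61.1% and 61.5% of the host gene counts in the DMSO libraries and 54.4% and 50.9% in the ACBI1 libraries. Mean levels ran from 0.501 CPM for SNHG21 to 375 CPM for SNHG29, and 17 genes had a mean of at least 10 CPM.

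**Figure D1:**
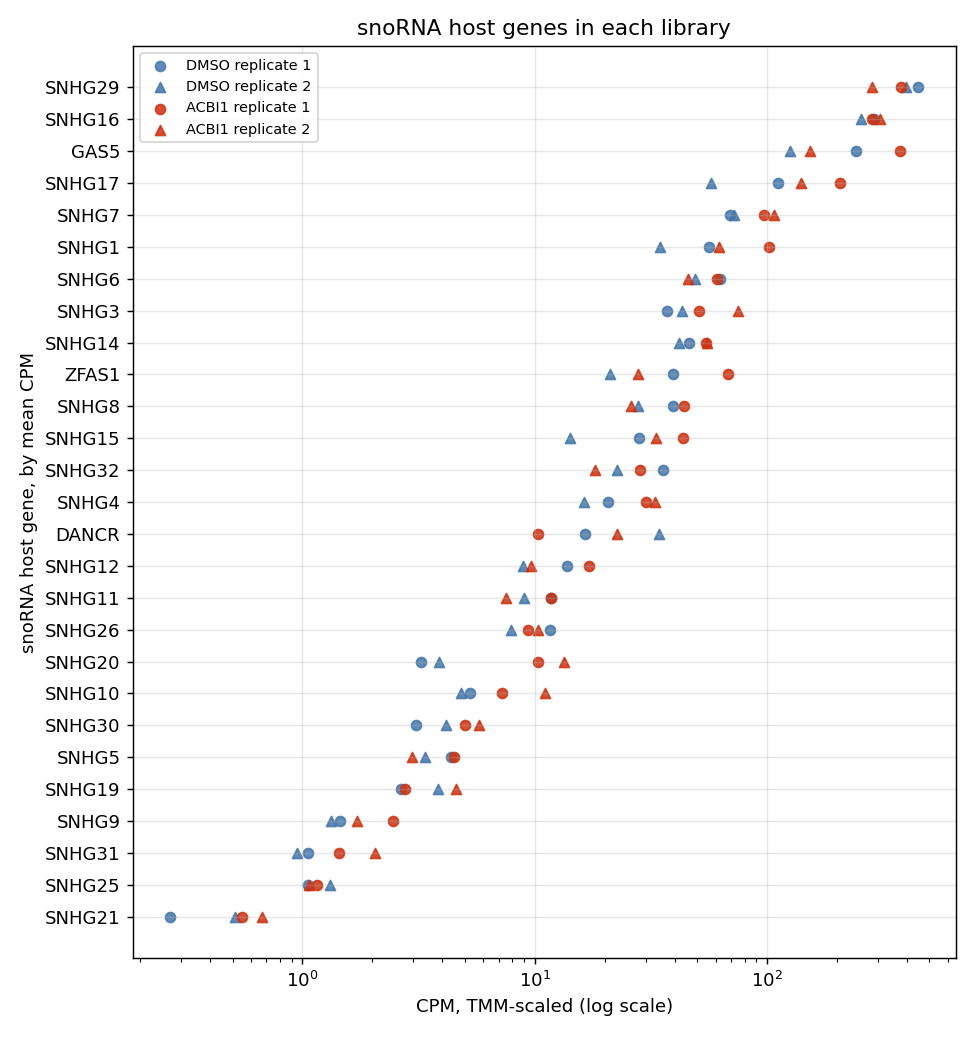
TMM-scaled CPM (log axis) of the 27 snoRNA host genes in each library, ordered by mean CPM, with blue for DMSO, red for ACBI1, circles for replicate 1 and triangles for replicate 2. SNHG20, near 3 to 4 CPM with DMSO and above 10 CPM with ACBI1, shows the clearest gap, and for GAS5 and ZFAS1 the circles lie to the right of the triangles in both groups.

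Per kilobase of exonic length in GENCODE release 29, a scale on which genes can be compared with each other, SNHG29 was the highest host gene, with a mean of 112 CPM per kb with DMSO and 87.8 CPM per kb with ACBI1. SNHG16 (50.5 and 54.8 CPM per kb), GAS5 (50.4 and 72.7 CPM per kb), SNHG6 (44.7 and 42.7 CPM per kb) and SNHG8 (36.5 and 37.7 CPM per kb) followed with DMSO, and SNHG17 went from 20.3 to 41.3 CPM per kb. No test was made between neighbours in this order. SNHG14, the long imprinted transcript of the Prader-Willi region, was 43.9 ± 2.99 CPM (SD, n = 2) with DMSO but only 1.01 CPM per kb, since its annotated exons span 43324 bases. At the low end, SNHG21 was at 0.372 CPM per kb with DMSO and SNHG31 at 0.474 CPM per kb. Exonic lengths merge all annotated transcripts, so a gene with many rare exons appears lower on this scale than the isoforms in use would make it.

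With ACBI1, 2 of the 27 host genes passed the test, SNHG20 and SNHG4, and both were higher. That is 7.41% of the host genes, beside 6.75% of all tested genes called higher, so the share of calls was near the background. No host gene was called lower by edgeR's quasi-likelihood test (10.6% of all tested genes were). None was lower at an unadjusted p under 0.05 (18.5% of all genes were). DESeq2 and limma-voom called none lower, beside 2604 and 2004 of all 19159 genes. The median log2 change was 0.53 over the host genes and 0.01 over all genes tested, and 20 of the 27 changes (74.1%) were positive, against 50.4% over all genes. At an unadjusted p under 0.05, 8 host genes (29.6%) were higher, beside 15.4% of all genes. DESeq2 called 5 host genes higher, beside 9.95% of all genes. In 13 host genes (48.1%) both ACBI1 libraries lay above both DMSO libraries, which 31.1% of all genes did. In 1 host gene, SNHG29 (3.70%), both lay below, beside 32.2% of all genes, and in the remaining 13 the groups overlapped.

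**Figure D2:**
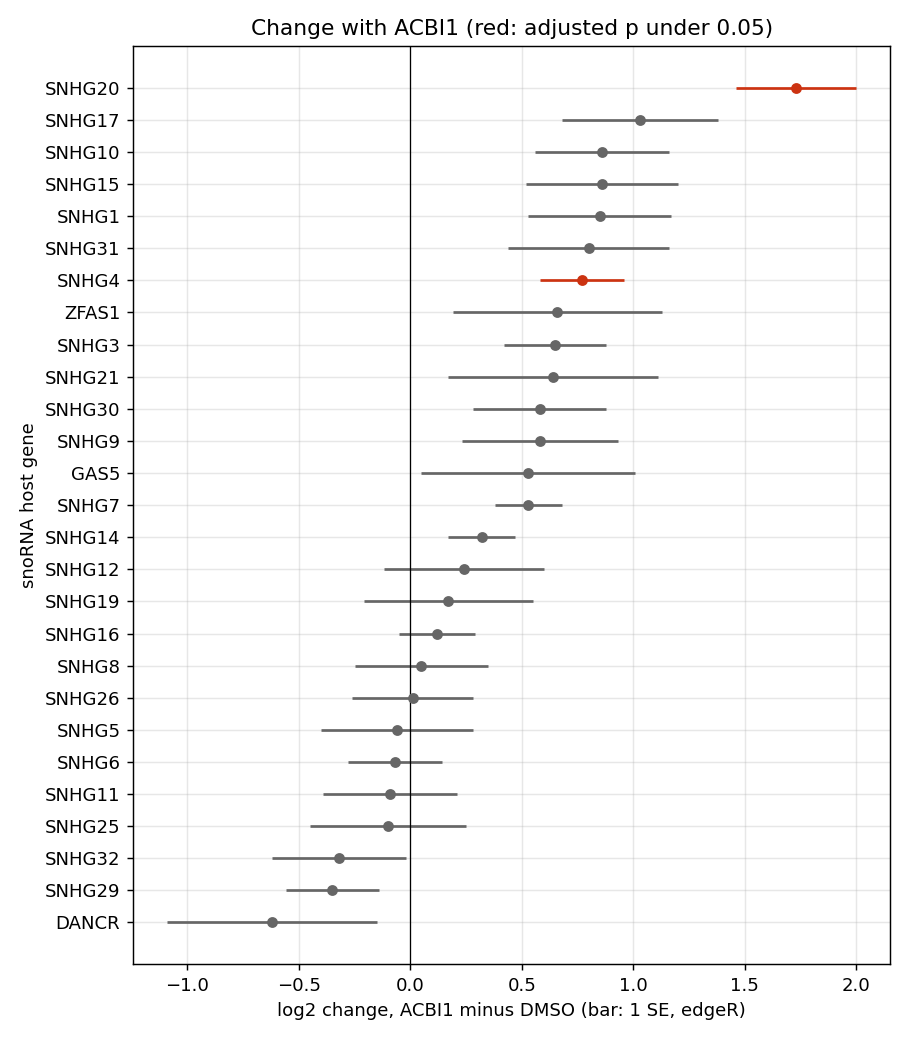
Log2 change of each snoRNA host gene, ACBI1 minus DMSO, with bars of 1 SE from edgeR, in red where the adjusted p was under 0.05. SNHG20 (1.73) and SNHG4 (0.77) are red, and the other 25 genes range from 1.03 for SNHG17 to -0.62 for DANCR.

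SNHG20, the host of SCARNA16, showed the largest change. It was at 3.23 and 3.88 CPM in the DMSO libraries and at 10.3 and 13.3 CPM in the ACBI1 libraries, on 263, 279, 921 and 870 counts. The lower ACBI1 library was well above the higher DMSO library. The log2 change was 1.73 (SE 0.27), a 3.31-fold rise, with an edgeR adjusted p of 0.0121. It was called under each of the 7 alternatives of scaling, filter and test. With each library left out in turn, the log2 change ran from 1.53 to 1.90. SNHG20 lies at chr17:77086716-77099902 on the + strand, and 8.89% of its exonic length is shared with SEC14L1 and a microRNA gene. SEC14L1, on the same strand, was at 155 and 177 CPM with DMSO and 149 and 163 CPM with ACBI1 (log2 change -0.09, adjusted p 0.74 from edgeR).

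The RefSeq promoter window of SNHG20, from 250 bases before the start to 50 bases from the start on, is shown because this gene changed most. It lies at chr17:77088393-77088692 (+ strand, GRCh38.p14), inside the longer gene span of GENCODE. Capitals mark CCGGAAG, the core that ETS factors recognise, and its reverse complement CTTCCGG, which stand side by side at the annotated start.
SNHG20 promoter: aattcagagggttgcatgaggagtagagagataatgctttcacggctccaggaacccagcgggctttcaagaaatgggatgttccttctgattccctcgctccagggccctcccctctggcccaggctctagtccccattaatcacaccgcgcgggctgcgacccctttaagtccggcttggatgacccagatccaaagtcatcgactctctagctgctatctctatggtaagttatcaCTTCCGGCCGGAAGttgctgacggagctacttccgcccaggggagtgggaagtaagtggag

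That core was in 2 of the 23 host gene promoters with a RefSeq entry (SNHG20 and SNHG26), or 8.70%, and in 10.3% of 35116 RefSeq promoters, with either strand counted. The other motifs searched on both strands, the E-box CACGTG and the YY1 core AAGATGGC, were in 2 host gene promoters (SNHG7 and SNHG30) and in 1 (ZFAS1), beside 7.26% and 2.89% of all promoters. These are letter matches in a window, not measured sites.

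SNHG4, a host of box H/ACA snoRNAs, was the other gene called. It was at 20.7 and 16.3 CPM with DMSO and at 30.1 and 32.9 CPM with ACBI1, on 1686, 1172, 2691 and 2157 counts. The groups did not overlap, and the ACBI1 libraries were closer to each other than the DMSO libraries were. The log2 change was 0.77 (SE 0.19), a 1.70-fold rise, with an edgeR adjusted p of 0.0432. The 7 alternatives called it too, with adjusted p from 0.00877 to 0.0444. Whether it was called depended on the library left out, and such a fit cannot show the spread of the lone library. It was not called without DMSO replicate 2 (log2 change 0.60, adjusted p 0.15), without ACBI1 replicate 1 (0.83, adjusted p 0.11) or without ACBI1 replicate 2 (0.69, adjusted p 0.159). SNHG4 lies at chr5:139274102-139284899 on the + strand and shares 16.6% of its exonic length with MATR3 and SIL1. MATR3, on the same strand, had a log2 change of 0.01 (adjusted p 0.975), while SIL1, on the opposite strand, fell (log2 change -0.73, adjusted p 0.0272). Neither called host gene had another gene starting within 1000 bases on the other strand.

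A further 4 host genes had edgeR adjusted p between 0.05 and 0.10, all with positive changes: SNHG7, SNHG17, SNHG10 and SNHG3. SNHG7, the host of SNORA17A and SNORA17B, was at 69.1 and 71.9 CPM with DMSO and 96.8 and 107 CPM with ACBI1. Its replicates were the tightest of these 4 genes, and the log2 change of 0.53 (SE 0.15) had an adjusted p of 0.0625. DESeq2 (adjusted p 0.0431) and scaling by library size only (adjusted p 0.0371) called SNHG7 higher, and over the 7 alternatives its adjusted p reached 0.0692. On the opposite strand FAM69B shares 25.2% of the exonic length of SNHG7, and it was not analysed here.

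SNHG17, which carries the SNORA71 family, was at 112 and 57.6 CPM with DMSO and 206 and 139.7 CPM with ACBI1. Both ACBI1 libraries were higher, but the DMSO libraries differed 1.95-fold from each other. The log2 change was 1.03 (SE 0.35, adjusted p 0.0982). DESeq2 called it (adjusted p 0.0243), as did the fit without a count filter (adjusted p 2.23e-05), although its log2 change there was 1.01. Without DMSO replicate 1 the change was 1.59. Leaving out DMSO replicate 2 gave 0.62.

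SNHG10, the host of SCARNA13, was at 5.26 and 4.81 CPM with DMSO and 7.24 and 11.1 CPM with ACBI1, a log2 change of 0.86 (SE 0.30, adjusted p 0.0985, DESeq2 adjusted p 0.0318). Here the spread lay in the ACBI1 libraries, and without ACBI1 replicate 2 the change was 0.52. SNHG3, the host of the SNORA73 pair that precedes RCC1, was at 37.0 and 43.1 CPM with DMSO and 50.8 and 75.0 CPM with ACBI1, a log2 change of 0.65 (SE 0.23, adjusted p 0.0995). Without ACBI1 replicate 2 the change of SNHG3 was 0.34. RCC1, the chromatin-bound exchange factor for Ran, shares 5.92% of the exonic length of SNHG3 and went from 88.4 and 70.4 to 112 and 132 CPM (log2 change 0.62, adjusted p 0.0705).

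SNHG1 and SNHG15 completed the group with an unadjusted p under 0.05. SNHG1, which carries 8 box C/D snoRNAs and starts 188 bases from the amino acid transporter gene SLC3A2 on the other strand, was at 56.0 and 34.7 CPM with DMSO and 102 and 62.0 CPM with ACBI1. The log2 change of SNHG1 was 0.85 (SE 0.32, adjusted p 0.12), while SLC3A2 had one of -0.18 (adjusted p 0.642). SNHG15, the host of SNORA9, was at 28 and 14.2 CPM with DMSO and 43.5 and 33.2 CPM with ACBI1, a log2 change of 0.86 (SE 0.34, adjusted p 0.133). In both genes the replicates of a group differed by 1.31-fold or more. Without DMSO replicate 1 the log2 changes were 1.24 for SNHG1 and 1.44 for SNHG15. Without DMSO replicate 2 they were 0.55 and 0.45. The fit without a count filter also called SNHG1 (adjusted p 0.000592), SNHG15 (adjusted p 0.00158), SNHG3 (adjusted p 0.0170) and ZFAS1 (adjusted p 0.0188). Their log2 changes in that fit, 0.84, 0.85, 0.64 and 0.65, were almost those of the main fit, and why the p-values were lower was not tested.

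GAS5 (growth arrest-specific 5), a TOP transcript with 10 box C/D snoRNAs and 1 H/ACA snoRNA in RefSeq, was at 240.5 and 125 CPM with DMSO and at 374 and 153 CPM with ACBI1. The groups overlapped, since ACBI1 replicate 2 lay below DMSO replicate 1. Its log2 change was 0.53 with an SE of 0.48 (adjusted p 0.487 from edgeR, and 0.0728 to 0.547 over the 7 alternatives). Replicate 1 was 1.92 times replicate 2 with DMSO and 2.45 times with ACBI1, while ACBI1 was 1.56 times DMSO between the libraries numbered 1 and 1.22 times between those numbered 2. The log2 change moved with the library left out: it was -0.26 without ACBI1 replicate 1, 0.13 without DMSO replicate 2, 1.07 without DMSO replicate 1 and 1.03 without ACBI1 replicate 2. With 9017 or more counts of GAS5 in each library, the spread between replicates, not counting error, set this SE.

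ZFAS1, the antisense host of the SNORD12 family at the 5′ end of ZNFX1, showed the same order of libraries as GAS5. It was at 39.3 and 21.1 CPM with DMSO and 67.8 and 27.9 CPM with ACBI1, a log2 change of 0.66 (SE 0.47, adjusted p 0.366) that became -0.11 without ACBI1 replicate 1. ZNFX1, which starts 248 bases away on the other strand, fell from 69.7 and 71.0 to 43.0 and 43.5 CPM (log2 change -0.70, adjusted p 0.026). Exons of other genes cover 42.9% of the exonic length of ZFAS1, on both strands. The strand setting of the counting is not stated, so the counts of ZFAS1 carry some uncertainty. The same limit holds for other host genes with exons shared on the opposite strand, among them SNHG16 (30.6% of exonic length), SNHG6 (29.3%), SNHG10 (20.1%) and SNHG29 (12.0%).

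DANCR (differentiation antagonizing non-protein coding RNA), the host of SNORA26, had the most negative change. It was at 16.4 and 34.1 CPM with DMSO and 10.3 and 22.5 CPM with ACBI1. In both groups replicate 1 was the lower one, at 0.481 and 0.458 times replicate 2, which is opposite to GAS5 and ZFAS1, and the groups overlapped. The log2 change was -0.62 (SE 0.47, adjusted p 0.4). Leaving out ACBI1 replicate 2 gave -1.30, and leaving out DMSO replicate 2 gave 0.00.

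Among the other abundant host genes none was called. SNHG29, which carries 3 box C/D snoRNAs, was at 447 and 395 CPM with DMSO and 378 and 282 CPM with ACBI1, a log2 change of -0.35 (SE 0.21, adjusted p 0.284), and it was the only host gene with both ACBI1 libraries below both DMSO libraries. SNHG16, the host of the SNORD1 family, was at 289.5 and 253 against 283 and 306 CPM (log2 change 0.12, SE 0.17, adjusted p 0.676). SNHG6, the host of SNORD87, was at 62.7 and 49.0 against 60.8 and 45.6 CPM (log2 change -0.07, SE 0.21, adjusted p 0.851). SNHG14 was at 46.0 and 41.8 against 54.6 and 55.3 CPM (log2 change 0.32, SE 0.15, adjusted p 0.19) and was not called, although the groups did not overlap.

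The other 12 host genes were not called, with log2 changes from -0.32 for SNHG32 to 0.80 for SNHG31. Among them SNHG31, SNHG21, SNHG30 and SNHG9 were between 0.58 and 0.80, each with both ACBI1 libraries above both DMSO libraries and at a mean under 5 CPM (SE 0.30 to 0.47). SNHG12, SNHG19, SNHG8, SNHG26, SNHG5, SNHG11 and SNHG25 lay between -0.10 and 0.24, with overlapping groups. The host gene with the fewest counts, SNHG21, had 22, 37, 49 and 44, and 72.9% of its exonic length is shared with other genes. The 4 matching symbols that fell short were SNHG22 (5, 8, 8 and 2 counts in the DMSO and then the ACBI1 libraries), SNHG18 (0, 6, 0 and 0), SNHG28 (1, 2, 0 and 0) and SNHG27 (0, 0, 0 and 1).

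**Figure D3:**
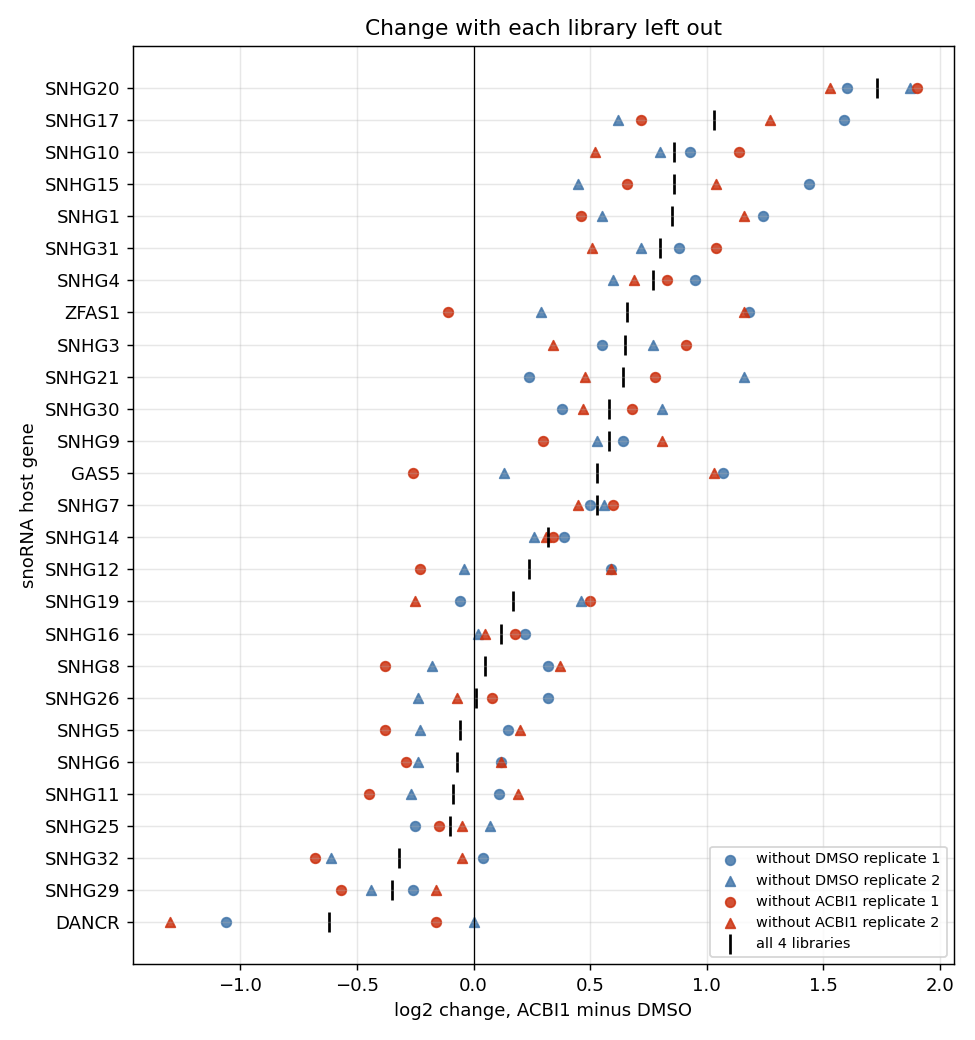
Log2 change of each host gene, ACBI1 minus DMSO, with all 4 libraries (bar) and with each library left out (blue for a DMSO library and red for an ACBI1 library, circles for replicate 1 and triangles for replicate 2). SNHG20 stays between 1.53 and 1.90, whereas GAS5 runs from -0.26 to 1.07 and DANCR from -1.30 to 0.00.

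Grouped by the guide RNAs they carry, the 10 genes with H/ACA snoRNAs alone had log2 changes with a median of 0.62 (from -0.62 to 1.03, 8 positive), with 1 called, SNHG4. The 11 genes with C/D snoRNAs alone had a median of 0.12 (from -0.35 to 0.85, 7 positive), with none called. The 3 scaRNA hosts, SNHG20, SNHG10 and SNHG21, had changes of 1.73, 0.86 and 0.64. The difference between these groups was not tested.

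The starts of the host genes were read in the 23 RefSeq promoter windows. A C at the start followed by at least 4 further pyrimidines, the TOP-like start, was found in 6 of them (26.1%), beside 4.07% of the 35116 promoters. The 6 are printed because they show this shared start, with 10 bases before the annotated start and 30 bases from it on (GRCh38.p14, each on the strand of the gene). Capitals mark the pyrimidine run.
SNHG4 (chr5:139274091-139274130, + strand): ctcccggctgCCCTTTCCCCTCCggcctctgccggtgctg
SNHG12 (chr1:28581844-28581883, - strand): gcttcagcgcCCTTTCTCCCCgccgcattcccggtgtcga
SNHG19 (chr16:2155329-2155368, - strand): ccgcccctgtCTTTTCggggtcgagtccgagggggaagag
SNHG32 (chr6:31834906-31834945, + strand): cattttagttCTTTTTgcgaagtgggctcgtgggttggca
SNHG5 (chr6:85678704-85678743, - strand): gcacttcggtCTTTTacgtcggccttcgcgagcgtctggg
ZFAS1 (chr20:49278632-49278671, + strand): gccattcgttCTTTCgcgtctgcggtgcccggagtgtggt

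Their log2 changes went both ways: 0.77 for SNHG4, 0.66 for ZFAS1, 0.24 for SNHG12, 0.17 for SNHG19, -0.06 for SNHG5 and -0.32 for SNHG32, of which that of SNHG4 was called. The RefSeq start of GAS5 did not begin with such a run. An annotated start can differ from the start in use, so a missing run says only that these letters are not at this position.

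Counts on the snoRNAs themselves were few, and whether they came from the snoRNAs or from unspliced host RNA was not tested. Of 62 names outside SNHG14, 51 had a row in the files and 12 of those had any count. In GENCODE release 29, 19 of 48 such snoRNAs lie wholly in introns of their host and 11 of these had a count, whereas 29 lie wholly or partly in an annotated host exon and 1 of these had a count. How reads over both a snoRNA and a host exon were assigned is not stated. The snoRNAs inside the host genes summed to 504 and 241 counts with DMSO and to 576 and 417 counts with ACBI1. SNORA71B in SNHG17 had 204, 49, 338 and 184 counts (2.51, 0.681, 3.78 and 2.81 CPM, log2 change 1.04, SE 0.61, edgeR adjusted p 0.279). SNORD104 in SNHG25, printed above, had 138, 91, 97 and 97 counts (log2 change -0.21, adjusted p 0.735), and SNORD12C had 21, 12, 26 and 23. SNORA73B in SNHG3 had 92, 62, 78 and 84 counts, with a log2 change of 0.11, beside 0.65 for its host. The difference between a snoRNA and its host was not tested. SCARNA16 had 0 counts in every library, so no comparison could be made for the guide of SNHG20.

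Transcripts of the proteins that bind snoRNAs were described by lists. Over all 19159 genes, the shares beside their counts were 6.75% called higher and 10.6% lower by edgeR, and 9.95% called higher by DESeq2. DESeq2 called 2604 genes lower, and limma-voom called 1308 higher and 2004 lower. In 31.1% of all genes both ACBI1 libraries lay above both DMSO libraries. All 4 core proteins of box C/D particles had positive changes with no overlap between groups, and 2 were called higher. FBL (fibrillarin), the methyltransferase, rose from 229.8 and 160 to 469 and 381 CPM (log2 change 1.13, adjusted p 0.0273 from edgeR), and SNU13 rose by a log2 change of 0.72 (adjusted p 0.031). NOP56 and NOP58, the scaffold proteins, had log2 changes of 1.06 (adjusted p 0.0506) and 0.85 (adjusted p 0.112). The 4 core proteins of H/ACA particles gave the same count, with NHP2 (log2 change 1.03, adjusted p 0.0157) and NOP10 (0.61, adjusted p 0.0382) called higher. The pseudouridine synthase DKC1 (0.81, adjusted p 0.099) and GAR1 (0.63, adjusted p 0.0692) were not called. The median log2 changes were 0.96 and 0.72 for the C/D and H/ACA lists, against 0.01 over all genes. DESeq2 called all 4 genes of each of these lists higher.

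Of 12 assembly factors, 3 were called higher and none lower, 11 of the 12 changes were positive, and the median was 0.53. The edgeR calls were NOPCHAP1 (log2 change 1.07, adjusted p 0.0494), NUFIP1 (0.93, adjusted p 0.0481), both of which help to build C/D particles, and the AAA+ ATPase RUVBL1 (0.69, adjusted p 0.0393). DESeq2 called 6 of the 12 higher. Of 18 genes of nonsense-mediated decay, 2 were called higher and 1 lower, with a median of 0.37. The kinase SMG1, which phosphorylates UPF1, rose (log2 change 0.77, adjusted p 0.0298), as did the helicase DHX34 (0.89, adjusted p 0.0374), and the endonuclease SMG6 fell (log2 change -0.63, adjusted p 0.0467). DESeq2 called 2 genes of this list higher and 2 lower, and limma-voom 2 higher and 0 lower. UPF1 itself had a log2 change of 0.13 (adjusted p 0.646).

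Protein-coding genes that host snoRNAs, most of them ribosomal proteins, gave log2 changes with a median of 0.11 over 40 genes. By edgeR 0 of the 40 were called, beside 17.4% of all genes. DESeq2 called 6 higher and 1 lower, beside 1907 and 2604 of all 19159 genes, and limma-voom called 2 higher, beside 1308. An unadjusted p under 0.05 was reached by 7 positive changes (17.5%), near the 15.4% of all genes, and by 1 negative change (2.5%), beside 18.5%. NOP56, DKC1 and RCC1 belong to this list too. TOP messages other than ribosomal proteins had a median of 0.04 over 16 tested genes, with 1 called, the nucleolar protein NPM1, which rose from 956 and 759.6 to 1687 and 1420.1 CPM (log2 change 0.86, adjusted p 0.0404). Of that list EEF1G was listed at 0 in each library.

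**Figure D4:**
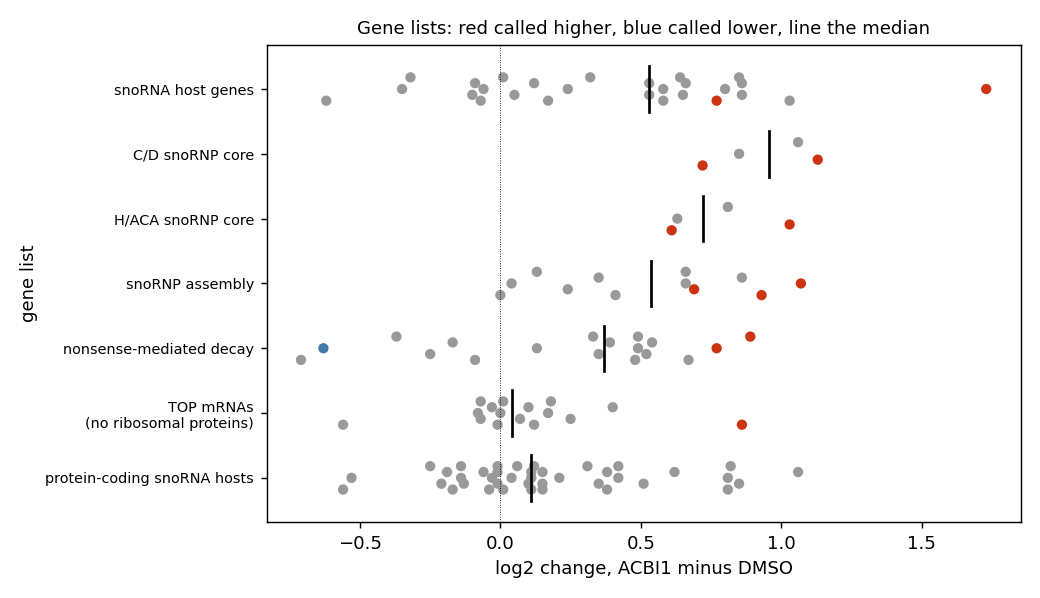
Log2 change, ACBI1 minus DMSO, of each tested gene in the host gene set and 6 related lists, in red where called higher, in blue where called lower and in grey where not called, with a black line at each median. The medians are 0.53 for the snoRNA host genes, 0.96 and 0.72 for the snoRNP core lists, 0.53 for assembly, 0.37 for nonsense-mediated decay, 0.04 for TOP messages and 0.11 for protein-coding hosts.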

How the data were processed

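The deposited files give RNA-seq read counts for each gene symbol as whole numbers, not normalized by the authors, with 61228 genes and 5 closing lines for unassigned reads (13.9% to 15.4% of reads listed), which were left out. The submitters' processing notes name TopHat2 2.1.1, HTSeq 0.11.0 and hg38. The annotation and strand setting are not given in the sources used here, and a kit sold for DNA libraries is named without the step from RNA. Groups and replicate numbers came from sample titles.

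Genes were filtered with edgeR's filterByExpr (minimum count 10, minimum total 15), leaving 19159, scaled by TMM and tested on treatment alone with edgeR 4.0.16 in R 4.3.3 (glmQLFit, glmQLFTest, two-sided). Genes with a Benjamini-Hochberg adjusted p under 0.05, over all tested genes, were called. CPM use TMM-scaled library sizes, and a count of 0 was taken to allow 3 counts, which covers counting error only. For 2 against 2 libraries the smallest exact permutation p is 0.333, so no single value was tested alone.

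The alternatives were 3 scalings, 2 filters, DESeq2 1.42.0, limma-voom (limma 3.58.1), the replicate number as a block, a threshold of 0.01 and each library left out. On counts simulated for this comparison over 19159 genes, edgeR called 9.89% of the genes given a log2 change of 1 and 86.3% of those given 2, with 6 false calls. The simulation changed only 200 genes and gave all genes the same spread between replicates. In the data 3331 genes were called, so the simulated shares need not hold there. Host genes were matched to GENCODE release 29 by gene ID (27 of 27, 4 of them under another symbol) and to RefSeq (GRCh38.p14) by symbol. The members and lists were chosen with earlier results of these data known. Values are given in full for called host genes and the 10 with the highest mean CPM, for at most 4 called genes with the largest change in a list and for the 4 snoRNAs with the highest counts. Host genes with an unadjusted p under 0.05, GAS5, ZFAS1, DANCR, neighbouring genes, other snoRNAs and uncalled list genes were named after their values were seen.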

Additional observations from a re-analysis of the deposited data

How the results depend on the processing

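With 2 libraries in a group, the SE on the log2 changes of the host genes ran from 0.15 to 0.48. A log2 change near 1 could be missed at a larger SE (SNHG17, 1.03, SE 0.35). A smaller change could be called at a smaller SE (SNHG4, 0.77, SE 0.19). Instead of 2, the number of host genes called higher was 7 with no filter, beside 2202 of 32871 genes. It was 5 with DESeq2, beside 1907 of 19159 genes. At a threshold of 0.01 it was 0, and the share of all genes there was not counted. A fit with a library left out assumes that the lone library varies like the others, so only its log2 changes are compared in this section. The other scalings and limma-voom called 2 or 3, beside 1308 to 1755 of all 19159 genes. The stricter filter called 2 of the 20 host genes it kept, beside 1113 of 11163 genes. SNHG20 and SNHG4 were among the calls of every alternative fitted on all 4 libraries at the threshold of 0.05. Over all genes, 2202 were called higher and 3316 lower with no filter, and with a library left out the calls ranged from 531 to 1434 higher and from 1151 to 2365 lower.

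With the replicate number as a block, 10 host genes were called higher (SNHG20, SNHG4, SNHG1, SNHG3, SNHG7, SNHG10, SNHG15, SNHG17, ZFAS1 with adjusted p 0.00415 and GAS5 with adjusted p 0.0242) and 1 lower (DANCR, adjusted p 0.0037), beside 3708 (19.4%) higher and 4201 (21.9%) lower over all genes. The labels do not say that a number marks a shared batch. The difference between libraries 1 and 2 of the DMSO group correlated with that of the ACBI1 group across 19159 genes, which are not independent (Pearson's r 0.442), and across the 27 host genes (r 0.789). The block moved no host gene to the other direction.

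Some uncalled changes took the other sign, most of them near 0 but also those of ZFAS1 (0.66) and GAS5 (0.53). With library size only, they were 0.04 for SNHG5, 0.02 for SNHG6 and 0.00 for SNHG11, and SNHG26 was at 0.00 with no filter and with the stricter filter. With a library left out, the change ranged from -0.11 to 1.18 for ZFAS1, -0.26 to 1.07 for GAS5, -0.23 to 0.59 for SNHG12, -0.25 to 0.50 for SNHG19, -0.38 to 0.37 for SNHG8, -0.24 to 0.32 for SNHG26, -0.38 to 0.20 for SNHG5, -0.29 to 0.12 for SNHG6, -0.45 to 0.19 for SNHG11, -0.25 to 0.07 for SNHG25 and -0.68 to 0.04 for SNHG32. The cause was not tested.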

Other observations

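Among the 472 snoRNA and scaRNA rows of the files, 49 had enough counts to be tested and 319 had 0 counts in every library. By edgeR's quasi-likelihood test, 2 (4.08%) were called higher with ACBI1 and 0 lower, beside 6.75% and 10.6% of all genes. Of the 49, 3 (6.12%) were lower at an unadjusted p under 0.05, beside 18.5% of all genes. DESeq2 called 1 higher and 1 lower, beside 1907 and 2604 of all 19159 genes. Neither of the pair that edgeR called lies inside one of the 27 host genes. SNORD11 had 21, 13, 64 and 55 counts in the DMSO and then the ACBI1 libraries (log2 change 1.81, SE 0.43, adjusted p 0.0384), and SNORA23 had 2, 2, 27 and 12 (adjusted p 0.0281). The box C/D RNA U3, which takes part in the first cleavages of the ribosomal RNA precursor and has its own promoter, was the most counted row. Its copy SNORD3A had 251, 340, 178 and 141 counts (log2 change -0.92, SE 0.34, adjusted p 0.119) and SNORD3B-2 had 150, 181, 85 and 72 (log2 change -1.09, SE 0.35, adjusted p 0.0859). U3 copies are near-identical, so reads can be split between them.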
